A study of Homo sapiens with 6 samples.

Results

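The interleukin-1 family was followed through 10 genes: the cytokines IL18, IL1A, IL1B and IL33, the antagonists IL1RN and IL18BP, the receptor chains IL1R1, IL1RAP and IL1RL1, and the protease CASP1. All 10 were matched by symbol among the 33117 rows of the expression table. They were chosen by name, with results of the contrast between shCAVIN1 and shCtrl already known, so their own levels, fold changes and standard errors in it are given as a description with no test. RNA sequencing of total RNA was done in WPMY-1, an immortal cell line from the stroma of a normal human prostate, grown in DMEM medium with serum. The shCAVIN1 cells (3 libraries) carried a lentiviral short hairpin RNA against CAVIN1, whose product coats caveolae, small pits of the plasma membrane. The shCtrl cells (3 libraries) carried the pLKO1 plasmid. Both viruses were packaged in HEK293T cells, a human embryonic kidney line, and puromycin was used to obtain stable lines, which the submitters call clones. A single hairpin and a single cell line were used, and the labels do not say whether replicates came from separate transductions.

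The hairpin target is the only designed sequence of the study and is shown because it defines the shCAVIN1 group. It was found in the GENCODE 29 transcripts of 1 gene, CAVIN1, which spans 42402452 to 42423517 of chromosome 17 (GRCh38, minus strand). The longest run of the target's 21 bases in a transcript of any of the 10 family genes, read on the sense strand, was 10 bases, in CASP1 and IL1RAP. Read 5′ to 3′ it is:
CAVIN1 hairpin target: gtggaggttgaggaggttatt

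Interleukin-18 and interleukin-1 beta are made as inactive precursors inside the cell and are cut to their active form by caspase-1, the enzyme encoded by CASP1, which is switched on in protein assemblies called inflammasomes. Interleukin-1 alpha and interleukin-33 are active before such a cut and are released from damaged cells. Interleukin-1 acts through IL1R1 with the shared partner chain IL1RAP, and interleukin-33 through IL1RL1 with the same partner. Interleukin-18 acts through IL18R1 with IL18RAP. The products of IL1RN and IL18BP keep interleukin-1 and interleukin-18 from their receptors.

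Values are FPKM (fragments per kilobase of transcript, scaled to the mapped fragments of the library) as deposited, which are scaled by length and so allow levels of different genes to be compared. Group values are means ± SD with n = 3 libraries each. Log2 fold changes are shCAVIN1 minus shCtrl on the log2(FPKM + 0.5) scale, with a standard error (SE) from limma, and understate changes of low genes. Folds are ratios of mean FPKM. Genes with a mean of at least 0.5 FPKM over the 6 libraries, 13941 in all, entered the test. The targeted gene, listed under its older symbol PTRF, stood at 134, 139 and 150 FPKM in the shCAVIN1 libraries, against 330, 347 and 330 FPKM in the shCtrl libraries. All shCAVIN1 libraries were thus below all shCtrl libraries.

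IL18 was the family gene with the widest separation of the groups. It stood at 15.8, 14.7 and 13.7 FPKM in the shCAVIN1 libraries, against 1.20, 1.19 and 0.741 FPKM in the shCtrl libraries. Every shCAVIN1 library was above every shCtrl library, and the gap between the groups was many times the spread within either. The means were 14.7 ± 1.03 FPKM in shCAVIN1 and 1.04 ± 0.263 FPKM in shCtrl, a 14.1-fold difference (log2 fold change 3.32, SE 0.136). By size this was rank 33 among the rises of the 13941 tested genes. IL18 was above 66.6%, 64.7% and 62.9% of tested genes in the shCAVIN1 libraries, and above 12.0%, 13.0% and 6.68% of them in the shCtrl libraries. The gene spans 112143251 to 112164117 of chromosome 11 (minus strand), where the annotated read-through gene AP002884.3, not analysed here, overlaps it on the opposite strand. Over bulk RNA, more cells with the transcript and more transcript per cell cannot be told apart.

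Caspase-1 RNA was also higher in shCAVIN1 cells. CASP1 stood at 1.46, 1.93 and 1.76 FPKM in the shCAVIN1 libraries, against 0.614, 0.513 and 0.543 FPKM in the shCtrl libraries. The groups did not overlap. The means were 1.72 ± 0.234 FPKM in shCAVIN1 and 0.556 ± 0.0519 FPKM in shCtrl, a 3.08-fold difference (log2 fold change 1.06, SE 0.105). CASP1 spans 105025443 to 105035250 of chromosome 11 (minus strand). Its neighbour CARD16, whose short product resembles the prodomain of caspase-1, stood at 0.835, 0.904 and 1.46 FPKM in shCAVIN1, against 0.271, 0.229 and 0.0502 FPKM in shCtrl. Fragments from the stretch that these genes share may have been split between them, so each value is uncertain as that of a single gene.

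IL18BP, the soluble binding protein that holds interleukin-18 away from its receptor, went the other way. It stood at 2.08, 1.77 and 2.17 FPKM in the shCAVIN1 libraries, against 4.97, 4.22 and 4.33 FPKM in the shCtrl libraries. All shCAVIN1 libraries were below all shCtrl libraries. The means were 2.01 ± 0.213 FPKM in shCAVIN1 and 4.51 ± 0.404 FPKM in shCtrl, which is 44.5% of the control level (log2 fold change -1.0, SE 0.0916). The gene lies on chromosome 11 at 71998541 to 72005715 on the plus strand and overlaps NUMA1 on the opposite strand. The library kit keeps strand, but whether the counting used it is not stated.

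The ratio of IL18 to IL18BP within a library put these opposite changes together. It was 7.57, 8.35 and 6.32 in the shCAVIN1 libraries, against 0.242, 0.281 and 0.171 in the shCtrl libraries. The RNA of the cytokine was thus above that of its binding protein in each shCAVIN1 library and below it in each shCtrl library. The ratio of IL18 to CASP1 was 10.8, 7.66 and 7.79 in shCAVIN1, against 1.96, 2.32 and 1.37 in shCtrl, so IL18 differed by more than the RNA of its processing enzyme did. These are ratios of RNA levels and say nothing of the proteins.

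**Figure D1:**
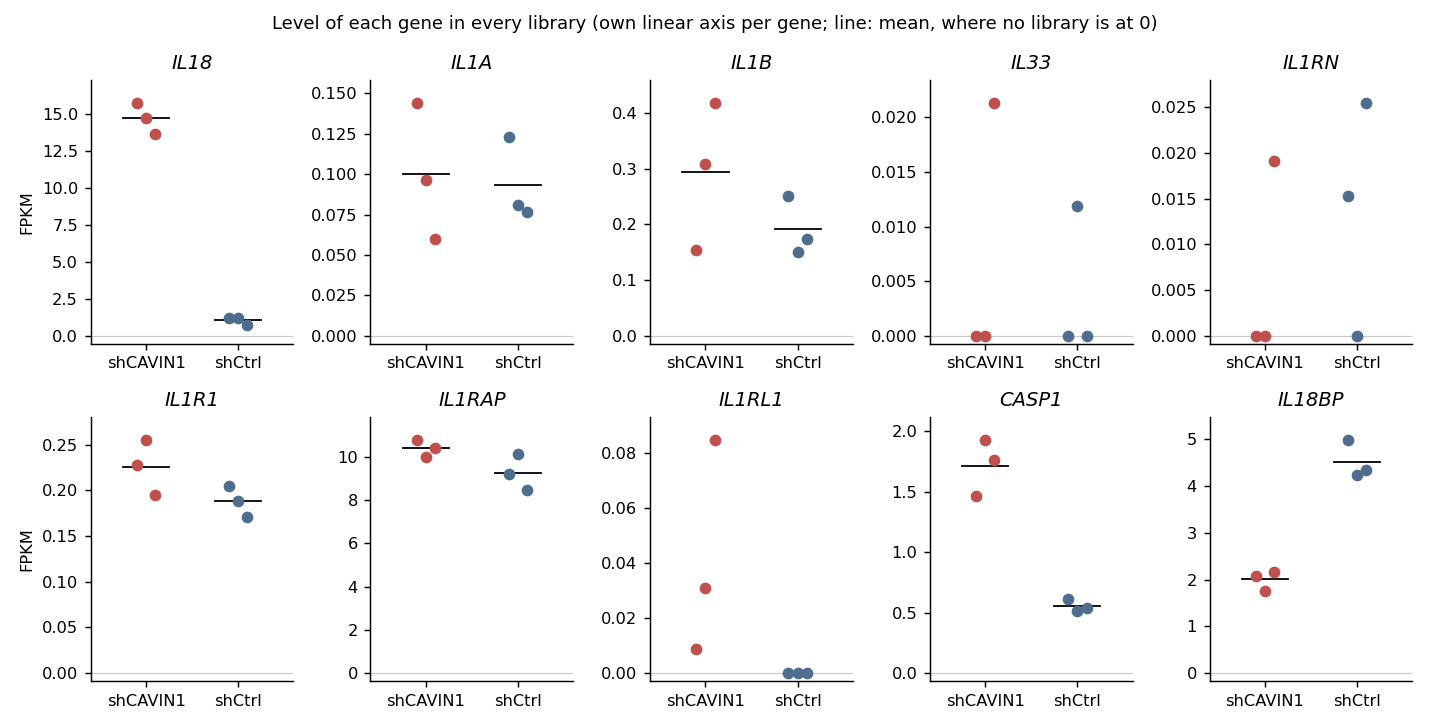
FPKM of each of the 10 genes in every library, on a linear axis of its own for each gene; points are libraries, shCAVIN1 in red and shCtrl in blue, and lines are group means, left out where a library is at 0. IL18 and CASP1 were higher and IL18BP lower in all 3 shCAVIN1 libraries, while the groups overlapped for IL1A, IL1B, IL33, IL1RN, IL1R1 and IL1RAP.

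IL1RAP, the partner chain shared by the receptors for interleukin-1 and interleukin-33, was the family gene with the highest level in shCtrl. It stood at 10.8, 9.99 and 10.4 FPKM in the shCAVIN1 libraries, against 9.21, 10.1 and 8.48 FPKM in the shCtrl libraries. The groups overlapped, with shCtrl replicate 2 inside the range of shCAVIN1. The means were 10.4 ± 0.384 FPKM in shCAVIN1 and 9.27 ± 0.816 FPKM in shCtrl (log2 fold change 0.16, SE 0.0702). IL1RAP lies on chromosome 3 at 190514051 to 190659750 on the plus strand.

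The signalling chain for interleukin-1, IL1R1, was low in both groups. It stood at 0.228, 0.255 and 0.194 FPKM in the shCAVIN1 libraries, against 0.205, 0.188 and 0.171 FPKM in the shCtrl libraries, with overlap. Its mean was 0.226 ± 0.0302 FPKM in shCAVIN1 and 0.188 ± 0.0169 FPKM in shCtrl, far under that of its partner IL1RAP in each group. IL1R1 lies on chromosome 2 at 102064544 to 102179874 on the plus strand. IL1RL1, the receptor for interleukin-33, stood at 0.00894, 0.0311 and 0.0846 FPKM in the shCAVIN1 libraries and was listed at 0 in all 3 shCtrl libraries. It overlaps IL18R1 on the same strand of chromosome 2, where it spans 102311502 to 102352037, and IL18R1 itself stood at 0.0273, 0.0348 and 0.0778 FPKM in shCAVIN1, against 0.0113, 0.00811 and 0.00958 FPKM in shCtrl. Both were higher in all 3 shCAVIN1 libraries, at levels so low that they stayed out of the test, and which of the overlapping genes gave the fragments cannot be told.

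The other cytokines of the family were scarce in these cells. IL1B stood at 0.155, 0.309 and 0.418 FPKM in the shCAVIN1 libraries, against 0.252, 0.151 and 0.174 FPKM in the shCtrl libraries. The lowest shCAVIN1 library lay within the range of shCtrl, and the means of 0.294 ± 0.132 FPKM in shCAVIN1 and 0.192 ± 0.0527 FPKM in shCtrl differed by less than the SD within shCAVIN1. IL1A stood at 0.144, 0.0965 and 0.0598 FPKM in shCAVIN1, against 0.123, 0.0812 and 0.0764 FPKM in shCtrl, again with overlap. IL1A and IL1B lie close together on chromosome 2, at 112773915 to 112784590 and at 112829751 to 112836903, both on the minus strand. IL33, on chromosome 9 at 6215786 to 6257983, was listed at 0 in 2 shCAVIN1 libraries and at 0.0213 FPKM in replicate 3, and at 0 in 2 shCtrl libraries and 0.0119 FPKM in replicate 2. The receptor antagonist IL1RN, on chromosome 2 at 113107214 to 113134016, was listed at 0 in 2 shCAVIN1 libraries and at 0.0191 FPKM in replicate 3, against 0.0152, 0 and 0.0254 FPKM in shCtrl. A difference in these low genes was not detectable at these levels, and a value of 0 in this table can be a failed estimate.

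The order of the levels changed at the top of the family. In shCAVIN1 it ran from IL18 to IL1RAP, then IL18BP and CASP1, and then IL1B, IL1R1 and IL1A. In shCtrl it ran from IL1RAP to IL18BP, then IL18, CASP1, IL1B, IL1R1 and IL1A. Neighbours whose libraries overlapped, and whose order is thus not fixed by these data, were IL18BP with CASP1 and IL1B with IL1R1 in shCAVIN1, and IL1B with IL1R1 in shCtrl. IL33, IL1RN and IL1RL1 stayed under 0.1 FPKM in every library of both groups.

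Of the 10 genes, 4 reached the 0.5 FPKM needed for the test, and each of these also averaged over 0.5 FPKM in each group alone. The libraries of IL18 and CASP1 were all higher in shCAVIN1 and those of IL18BP all lower, with no overlap in these 3 of the 4, and groups without overlap were found for 64.6% of all tested genes. Since the genes were picked with this contrast known, nothing is read from this count.

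**Figure D2:**
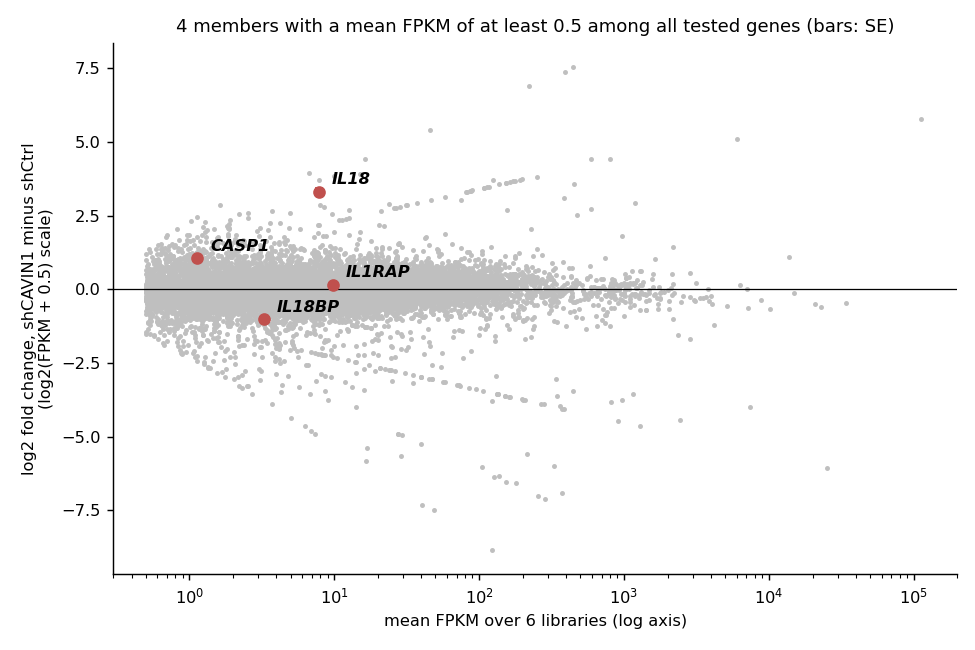
Log2 fold change, shCAVIN1 minus shCtrl, on the log2(FPKM + 0.5) scale against mean FPKM over 6 libraries (log axis) for the 13941 tested genes in grey, with the 4 tested family genes in red and SE as bars. IL18 (3.32) lies above most of the tested genes, CASP1 (1.06) above 0, IL18BP (-1.0) below 0, and IL1RAP (0.16) close to 0.

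Facts of the whole table bear on these values. Between 19649 and 20435 genes were above 0 in a library, and the small nuclear RNA RN7SK, at 106035 to 151555 FPKM in 5 libraries, had a value of 0 in shCtrl replicate 2. All 12 stromal markers reached 0.5 FPKM on average, with 2 higher and 7 lower in shCAVIN1, and their sum was 2056 to 2101 FPKM in shCAVIN1 against 1249 to 1373 FPKM in shCtrl, of which S100A6 gave 1497 to 1537 FPKM and 410 to 449 FPKM. Myeloid cells are a main source of interleukin-18 in tissue. The 10 myeloid markers summed to 1.23 to 1.83 FPKM in shCAVIN1 and 1.78 to 2.31 FPKM in shCtrl, and CD163, TYROBP and SPI1 were listed at 0 in every library. Within that sum CD14 fell, with a mean of 0.508 FPKM in shCAVIN1 and 1.22 FPKM in shCtrl. PTPRC, below the filter, was higher in every shCAVIN1 library (0.128 to 0.148 FPKM in shCAVIN1, 0.0236 to 0.0655 FPKM in shCtrl), and FCER1G averaged 0.466 FPKM in shCAVIN1 and 0.222 FPKM in shCtrl with overlap. The part of such cells in the IL18 values was not tested. Epithelial cells are another source: of 10 epithelial markers 2 rose, KRT8 among them, and 1 fell (KRT18), with KLK3 listed at 0 in every library, and the sum was 244 to 259 FPKM in shCAVIN1 against 400 to 434 FPKM in shCtrl, nearly all from the keratins KRT18 and KRT8. Endothelial markers summed to 1.15 to 1.26 FPKM in shCAVIN1 and 0.439 to 0.882 FPKM in shCtrl over 6 genes, with EMCN listed at 0. TEK, the only one tested, rose and gave most of the sum in shCAVIN1 (mean 0.941 FPKM, against 0.227 FPKM in shCtrl). It entered the test only through shCAVIN1. CLDN5 was lower in every shCAVIN1 library (mean 0.0966 FPKM, against 0.307 FPKM in shCtrl). PECAM1 was lower on average with overlap, and CDH5 and VWF were higher in every shCAVIN1 library. Lymphoid markers stayed under 0.2 FPKM in sum in each library, with CD3D, CD3E and CD2 at 0.

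Related genes were listed by role, 110 in 6 lists, and all had a row in the table. The lists were drawn up with earlier results of these data known, so nothing is read from their counts, here or below. Of the 63 that were tested, 27 rose, 12 fell and 24 did not pass the threshold, with a median log2 fold change of 0.12 against -0.02 over all tested genes. Of all tested genes 55.5% were called, 27.3% higher and 28.2% lower. The related-gene counts depended on the scaling. With scaling by the median ratio between libraries, 29 related genes rose and 12 fell. Under quantile normalization 31 rose and 13 fell. When the libraries were rescaled to equal FPKM sums (TPM), 16 rose and 6 fell, and the median of all tested genes moved to 0.09. Under the same rescaling 64.4% of the changed genes of the whole table were higher, against 49.2% with values as deposited. The threshold here and below is a limma adjusted p under 0.05 over all tested genes, and p-values measure only the spread between these libraries.

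Other ligands and receptors of the family were mostly below the test. Of 13, only SIGIRR reached 0.5 FPKM, and 5 were listed at 0 in every library, among them IL18RAP, the partner chain that interleukin-18 needs for signalling, and the decoy receptor IL1R2. SIGIRR, an inhibitory receptor of the family, fell to 2.33, 2.39 and 2.92 FPKM in the shCAVIN1 libraries, against 4.22, 5.00 and 5.34 FPKM in the shCtrl libraries (log2 fold change -0.81, SE 0.110, limma adjusted p = 0.00133). The groups did not overlap. With no filter on low values 1 gene of this list was called higher.

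Of 15 tested inflammasome and release genes, 4 rose and 4 fell, against 27.3% higher and 28.2% lower over all tested genes, and nothing is read from this count. CARD16, among the 4 that rose, averaged 0.184 FPKM in shCtrl and entered the test only through shCAVIN1. NINJ1, which breaks the plasma membrane in lytic cell death, rose to 51.2, 52.5 and 52.3 FPKM in shCAVIN1, against 29.6, 30.5 and 28.0 FPKM in shCtrl (log2 fold change 0.82, limma adjusted p = 5.09e-05). CASP8, the initiator caspase of death receptors, which can also cut interleukin-1 beta, fell to 3.29, 3.37 and 3.35 FPKM in shCAVIN1, against 7.28, 8.50 and 7.17 FPKM in shCtrl (log2 fold change -1.08, limma adjusted p = 9.21e-05). The inflammasome sensor NLRP1 fell to 1.23, 1.39 and 1.37 FPKM in shCAVIN1, against 2.97, 2.32 and 2.60 FPKM in shCtrl (log2 fold change -0.77, limma adjusted p = 0.000876). For each of these genes the groups were apart. DPP8, a peptidase that restrains NLRP1, fell with a log2 fold change of -0.48, a call lost under rescaling to TPM (-0.36). Named for their roles after their values had been seen, the adaptor PYCARD, which links sensors to caspase-1, stood at 13.6, 15.4 and 16.9 FPKM in shCAVIN1 and 16.7, 18.6 and 16.3 FPKM in shCtrl and did not pass. The inflammasome sensor NLRP3 stayed at or under 0.0254 FPKM in each library and was not tested.

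Among proteases other than caspase-1 and caspase-8 that process family members or act beside them, 5 of 11 were tested, of which 4 rose and 1 fell (all tested genes: 27.3% higher, 28.2% lower). Calpains cut the interleukin-1 alpha precursor. The large subunit CAPN2 rose to 234, 238 and 241 FPKM in shCAVIN1, against 160, 178 and 166 FPKM in shCtrl (log2 fold change 0.50, limma adjusted p = 0.000521), and the other large subunit CAPN1 fell to 26.3, 25.5 and 26.5 FPKM in shCAVIN1, against 31.6, 31.2 and 31.4 FPKM in shCtrl (log2 fold change -0.26, limma adjusted p = 0.00128). The groups were apart for both subunits, in opposite directions. The calpain small subunit CAPNS1 rose too (log2 fold change 0.32). With rescaling to TPM 2 rose and 0 fell, and the calls of CAPN1 (-0.14) and CAPNS1 (0.44) were lost. The myeloid and lymphocyte proteases of this list, such as ELANE and GZMB, were at or near 0.

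In the signalling chain below the receptors 11 of 20 tested genes did not pass the threshold. Of these adaptors and kinases 5 rose and 4 fell, where 55.5% of all tested genes were called, and with rescaling to TPM 1 rose and 1 fell. PELI2, a Pellino ubiquitin ligase that acts with the IRAK kinases, fell to 0.247, 0.506 and 0.312 FPKM in shCAVIN1, against 3.70, 3.01 and 2.73 FPKM in shCtrl (log2 fold change -2.10, SE 0.151, limma adjusted p = 0.00012). It had the largest log2 fold change of the 20, and the groups were far apart. PELI2 averaged 0.355 FPKM in shCAVIN1 and entered the test only through shCtrl, so its call is a description. TAB3, a partner of the kinase TAK1, rose to 6.07, 5.63 and 5.66 FPKM in shCAVIN1, against 3.96, 3.81 and 4.23 FPKM in shCtrl (log2 fold change 0.48, limma adjusted p = 0.000817). The kinases IRAK1 (log2 fold change 0.35) and IKBKB (0.29) rose too, both with the call lost under TPM (0.48 and 0.40). MYD88, the adaptor of all these receptors, named after its values had been seen, stood at 1.50, 1.50 and 1.71 FPKM in shCAVIN1 and 1.96, 1.31 and 1.70 FPKM in shCtrl and did not pass. The number that rose was 8 without shCtrl replicate 2 and 3 without any one of the other 5 libraries.

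Of 10 tested NF-kB subunits and inhibitors, 6 rose and 1, RELA, fell, beside 27.3% higher and 28.2% lower among all tested genes. As the list was chosen with earlier results of these data known, nothing is read from this count. NFKBIA, the inhibitor that NF-kB itself induces, rose to 21.9, 21.7 and 22.3 FPKM in shCAVIN1, against 9.64, 12.2 and 9.08 FPKM in shCtrl (log2 fold change 1.07, limma adjusted p = 0.000355). NFKBIZ, a nuclear cofactor of NF-kB that interleukin-1 induces, rose to 10.4, 11.6 and 11.8 FPKM in shCAVIN1, against 5.75, 6.28 and 5.76 FPKM in shCtrl (log2 fold change 0.87, limma adjusted p = 0.000148). The subunit genes NFKB1 (log2 fold change 0.51) and RELB (0.71) rose with them, and for each of these 4 the groups were apart. RELA, a main transactivating subunit, fell to 14.1, 14.6 and 14.1 FPKM in shCAVIN1, against 18.0, 15.8 and 16.2 FPKM in shCtrl (log2 fold change -0.21, limma adjusted p = 0.0205). The number that fell was 0 without any one shCAVIN1 library and under TPM, and 2 without shCtrl replicate 2 and with a block for the replicate number.

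Of 30 genes known to respond to interleukin-1 in fibroblasts, 12 were tested, and 8 of these rose, 1 fell and 3 did not pass. Over all tested genes 27.3% were higher and 28.2% lower. This list too was chosen with earlier results of these data known, so nothing is read from the count. The matrix protease MMP3 rose to 4.75, 4.74 and 4.60 FPKM in shCAVIN1, against 0.354, 0.384 and 0.378 FPKM in shCtrl (log2 fold change 2.58, SE 0.0607, limma adjusted p = 4.46e-06). The monocyte chemokine CCL2 rose to 25.4, 23.9 and 25.2 FPKM in shCAVIN1, against 9.44, 13.1 and 10.1 FPKM in shCtrl (log2 fold change 1.17, limma adjusted p = 0.000395). BIRC3, an inhibitor of apoptosis, rose as well (log2 fold change 0.61), and the cytokine LIF fell to 4.64, 4.87 and 4.85 FPKM in shCAVIN1, against 7.58, 8.01 and 7.52 FPKM in shCtrl (log2 fold change -0.63). The groups were apart for each of these 4 genes. MMP3 (mean 0.372 FPKM in shCtrl) and VCAM1 (0.438 FPKM in shCtrl), both among the 8 that rose, entered the test only through shCAVIN1. Their calls are thus a description. The classical response genes IL6 and CXCL8 (listed as IL8), named after their values had been seen, stayed below the filter. IL6 stood at 0.434, 0.571 and 0.544 FPKM in shCAVIN1, against 0.176, 0.233 and 0.302 FPKM in shCtrl, and CXCL8 at 0.377, 0.515 and 0.468 FPKM in shCAVIN1, against 0.184, 0.316 and 0.257 FPKM in shCtrl. Other response genes below the filter went both ways. CXCL1 and CCL7 were higher in every shCAVIN1 library. CCL20 (mean 0.0346 FPKM in shCAVIN1, 0.0826 FPKM in shCtrl), CSF2 (0.0601 and 0.0809 FPKM) and CSF3 (0.0278 and 0.0543 FPKM) were lower on average, with overlap. With rescaling to TPM 5 genes of this list rose, and with a filter at a mean of 2 FPKM 4 did.

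**Figure D3:**
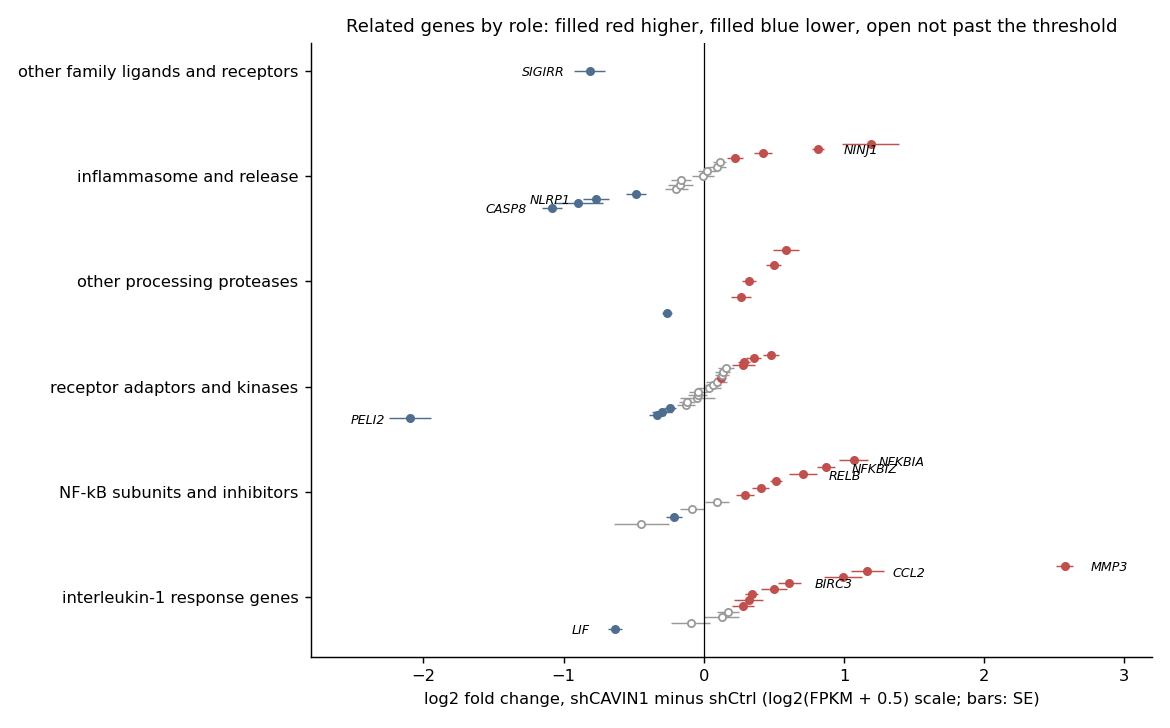
Log2 fold change, shCAVIN1 minus shCtrl, on the log2(FPKM + 0.5) scale with SE for the 63 tested related genes by role; filled red points rose, filled blue points fell and open points did not pass the limma threshold. PELI2 (-2.10) and MMP3 (2.58) stand apart, 6 of 10 NF-kB genes and 8 of 12 response genes rose, and inflammasome genes split 4 to 4. Of all tested genes 27.3% were higher and 28.2% lower. With rescaling to TPM 5 NF-kB genes and 5 response genes rose. Nothing is read from these counts, since the lists were chosen with earlier results known.

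The profile of IL18 over the 6 libraries was compared with that of each tested gene by the root mean square difference of log2(FPKM + 0.5) after centring. The 5 closest genes were BMP4, a growth factor (0.27), SPINK6, a protease inhibitor (0.28), DCN, the matrix proteoglycan decorin (0.31), NMU, a neuropeptide (0.32) and ROBO1, a guidance receptor (0.36), with Pearson r of 0.988 to 0.996 over 6 libraries. These r come from groups that are far apart and rest on that gap. BMP4 stood at 41.0, 43.5 and 43.4 FPKM in shCAVIN1, against 5.07, 5.81 and 5.11 FPKM in shCtrl. On the centred scale IL18 was above all 5 in each shCAVIN1 library and below all 5 in shCtrl replicate 3. SPINK6 was listed at 0 in 2 shCtrl libraries, so its place depends on the pseudocount (log2 fold change 2.86 as tested and 4.89 with a pseudocount of 0.1). It averaged 0.0141 FPKM in shCtrl and 3.24 FPKM in shCAVIN1, and entered the test only through shCAVIN1.

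**Figure D4:**
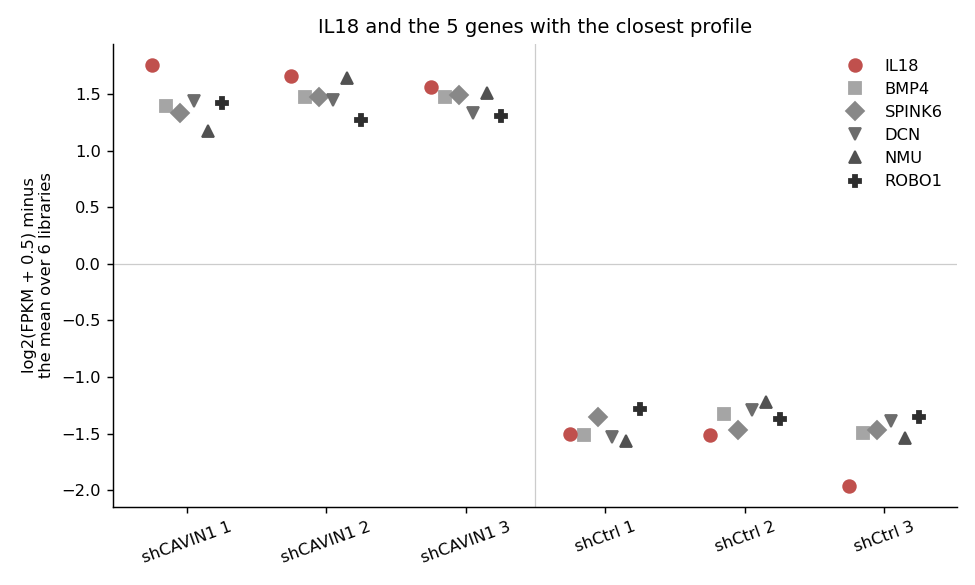
Centred log2(FPKM + 0.5) of IL18 (red) and the 5 genes with the closest profile (grey) in each of the 6 libraries. All 6 genes are above their mean in the 3 shCAVIN1 libraries and below it in the 3 shCtrl libraries, with IL18 lowest in shCtrl replicate 3.

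The difference in IL18 was set beside its neighbours on chromosome 11. GENCODE 29 holds 20 other protein-coding genes with a start site within 500 kb of that of IL18. Of these, 17 matched a row by symbol and 11 were tested, of which 2 rose and 9 fell. Among all tested genes 55.5% were called, 27.3% higher and 28.2% lower, and nothing is read from the count of neighbours. PTS, an enzyme of tetrahydrobiopterin synthesis 62.2 kb away on the higher-coordinate side, rose to 31.3, 31.4 and 32.5 FPKM in shCAVIN1, against 16.2, 21.2 and 18.0 FPKM in shCtrl (log2 fold change 0.77, SE 0.0947, limma adjusted p = 0.000873). CRYAB, a small heat shock protein on the other side, rose to 0.980, 0.577 and 0.886 FPKM in shCAVIN1, against 0.461, 0.283 and 0.25 FPKM in shCtrl (log2 fold change 0.66, limma adjusted p = 0.0161). That call was lost without shCAVIN1 replicate 1 (0.0526), shCAVIN1 replicate 3 (0.0546) or shCtrl replicate 3 (limma adjusted p = 0.0515). CRYAB averaged 0.331 FPKM in shCtrl and entered the test only through shCAVIN1. The 9 that fell had log2 fold changes of -0.23 (PPP2R1B) to -0.79 (DIXDC1, a regulator of Wnt signalling). All 9 lie on the lower-coordinate side, as do all tested neighbours but PTS, so nothing is read from their side. C11orf1 lost its call without shCAVIN1 replicate 1, shCAVIN1 replicate 2 or shCtrl replicate 2, and SDHD without any one shCAVIN1 library. With rescaling to TPM only the call of DIXDC1 among the 9 was kept. The nearest neighbours, TEX12 at 3.3 kb and BCO2 at 11.4 kb, were below the filter: TEX12 stood at 0.211, 0.256 and 0.228 FPKM in shCAVIN1, against 0.442, 0.443 and 0.296 FPKM in shCtrl, and BCO2 at 0.353, 0.241 and 0.368 FPKM in shCAVIN1, against 0.0286, 0.0684 and 0.118 FPKM in shCtrl. The log2 fold changes of all 11 tested neighbours were smaller in size than that of IL18. IL18 was chosen with this contrast known and was rank 33 among the rises of the 13941 tested genes, so nothing is read from this.

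**Figure D5:**
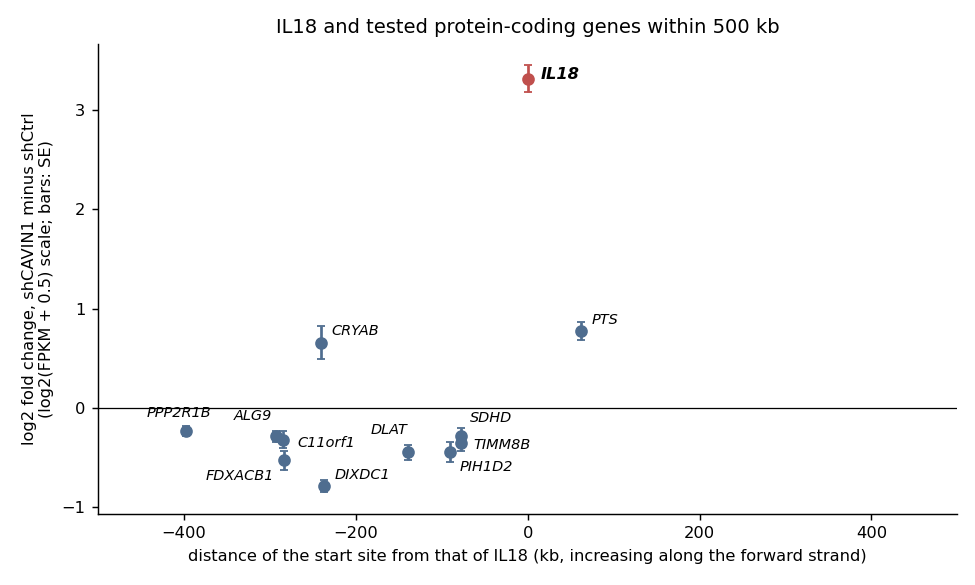
Log2 fold change, shCAVIN1 minus shCtrl, on the log2(FPKM + 0.5) scale with SE for IL18 (red) and the 11 tested protein-coding genes within 500 kb (blue), by distance of start sites in kb. IL18 stands at 3.32, and the neighbours lie between -0.79 (DIXDC1) and 0.77 (PTS).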

How the data were processed

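Total RNA of 6 WPMY-1 libraries was sequenced, 3 per group, as given by the sample titles. The authors deposited 1 table of FPKM values with 33117 rows. Per the submitters' processing notes, the reads were handled with TopHat and TopHat2 (2.2.5), CASAVA and bcl2fastq (2.17.1.14), and the build was GRCh38. Of the quantifier, the annotation and the use of strand, nothing is given in the sources used here. FPKM are not counts and whole fragments were not recovered, so absolute depth is unknown and no counting interval is given; the commonest ratio of low values between libraries put relative depth between 0.66 and 1. Genes with a mean FPKM of at least 0.5 entered limma 3.58.1 (R 4.3.3) as log2(FPKM + 0.5) (group as the only term, variance trend, Benjamini-Hochberg adjustment over 13941 genes), after a check on simulated data. The family genes and the lists of related genes were chosen with earlier results of these data known. Genes named are the family, up to 4 per list by lowest adjusted p, the 5 closest profiles and genes near IL18. CARD16, RELA, VCAM1 and low or uncalled list genes were named after their values were seen. An exact permutation test of 3 against 3 libraries cannot go below p = 0.1. Positions come from GENCODE 29. No batch is labelled. Some genes of the lists are counted but not reported by name here. The promoters of IL18 and CASP1 were not analysed here.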

Additional observations from a re-analysis of the deposited data

How the results depend on the processing

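Over 15 alternatives, the log2 fold changes of IL18 (2.95 to 3.72), CASP1 (0.80 to 1.46) and IL18BP (-1.13 to -0.87) are given as ranges of a description. A filter at a mean of 2 FPKM dropped CASP1 and left 1 family gene on the higher side. The log2 fold change of IL1RAP was 0.10 to 0.28 over the 15 alternatives. It was highest under rescaling to TPM, 0.20 under quantile normalization and 0.10 to 0.22 over the fits that leave out 1 library. Rescaling to TPM left 2198 higher and 1213 lower genes in the whole table, and 16 higher and 6 lower related genes; RN7SK, at 0 in shCtrl replicate 2, is part of the sums it uses, and its share in this was not tested. Same-numbered libraries deviated together with r of 0.09, 0.07 and -0.03, so the numbers are not taken to pair them. With the replicate number as a block, 3511 genes were higher and 3656 lower, the log2 fold change of IL18 stayed at 3.32, and 3 adaptors rose. The counts of genes near IL18 were put through the same alternatives after the data were seen. The unknown depth limits what can be said of IL1A, IL1B, IL33, IL1RN, IL1R1 and IL1RL1.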
